A study of Mus musculus with 32 samples.

Results

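The tumour necrosis factor (TNF) superfamily was followed by RNA-seq in mouse spinal cord after injury and after treatment with the transcription factor Gsx1 or Nkx6.1. All genes whose symbol was Tnf, Tnfsf followed by a number or Tnfrsf followed by a number were taken, which gave 32 of the 23420 genes in the table, 12 ligands and 20 receptors. Of these, 27 (9 ligands and 18 receptors) passed the filter on low counts and were tested among 16314 genes. The members below the filter were Tnfrsf17, Tnfrsf8, Tnfsf15, Tnfsf18 and Tnfsf4. Their totals over the 32 libraries were 36, 49, 60, 30 and 1 counts.

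The mice were of strain C57BL/6J and 8 to 12 weeks old, and the tissue was whole cord from the segment around the lesion or injection. Injured cords received a control treatment (SCI+Ctrl), Gsx1 (SCI+Gsx1) or Nkx6.1 (SCI+Nkx6.1), and uninjured cords were Sham. What the control treatment was, how the factors were delivered and how the cord was injured are not stated in the labels. Sham, SCI+Ctrl, SCI+Gsx1 and SCI+Nkx6.1 were sampled at 3 and 35 days post injury (dpi), and SCI+Ctrl and SCI+Gsx1 also at 14 dpi, where no Sham or SCI+Nkx6.1 group was analysed here. Each group held 3 libraries, except SCI+Ctrl and SCI+Gsx1 at 35 dpi with 4 each. The series title names recovery of movement after cord injury with Gsx1 as the subject of the study.

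Ligands of this family are mostly trimeric proteins of the cell surface, and some are released by proteases. They bind receptors that either carry a death domain and can start apoptosis, recruit TRAF adaptors and switch on NF-κB, or act as decoys that bind the ligand without a signal. In the injured cord TNF is known as an early product of microglia, infiltrating macrophages and other glia, and its receptors as regulators of inflammation and cell survival.

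Total counts ranged from 10.8 to 19.5 M per library (median 14.6 M). Levels are given as CPM, the count of a gene per 1e6 counts of its library after edgeR's TMM scaling. Gsx1 had 0 to 10 counts in every library, and Nkx6-1 ranged from 3.62 to 12.7 CPM with no higher level in SCI+Nkx6.1, so the counts do not check which factor a library received. The sex of the mice is not labelled, and 7 libraries held Xist, a transcript of the inactive X chromosome, at 100 CPM or more. These were replicates 1 and 2 of Sham at 3 dpi, replicate 1 of SCI+Ctrl at 3 dpi, replicate 3 of Sham at 35 dpi, replicates 1 and 4 of SCI+Ctrl at 35 dpi and replicate 2 of SCI+Nkx6.1 at 35 dpi. Replicate 1 of Sham at 3 dpi and replicate 4 of SCI+Ctrl at 35 dpi also held the Y-linked Ddx3y above 10 CPM. The count of calls without these libraries is given beside the injury result at 35 dpi.

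In the uninjured cord the family was mostly receptors. On a scale of CPM per kilobase of annotated exons, the most abundant member in Sham at 3 dpi was Tnfrsf21 (death receptor DR6, which is expressed by neurons), with a level of 37.0 ± 1.77 (SD, n = 3). Next came Tnfrsf19 (TROY, a receptor of developing and adult nervous tissue), with a level of 10.9 ± 0.809 CPM per kilobase. Tnfrsf12a (Fn14, the receptor of TWEAK) at 7.87 ± 1.49 and Tnfrsf1a (TNFR1, the death-domain receptor of TNF) at 7.87 ± 0.691 could not be ordered, since their libraries overlapped. Tnfsf12 (TWEAK) was the most abundant ligand, at 2.97 ± 0.408 CPM per kilobase. Tnf itself was at 0.0718 ± 0.0858 on the same scale and ranked 24 of the 32 members.

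The order differed in the injured cord. In SCI+Ctrl at 3 dpi Tnfrsf1a stood above all other members at 36.7 ± 6.17 CPM per kilobase, without overlap with Tnfrsf21, which was next at 26.0 ± 0.921. Tnfrsf12a (20.0 ± 4.03) and Tnfrsf1b (TNFR2, which lacks a death domain; 14.0 ± 7.24) followed and overlapped each other. By 35 dpi the levels per kilobase of Tnfrsf21 (26.1 ± 6.71) and Tnfrsf1a (25.3 ± 5.84) overlapped in SCI+Ctrl (n = 4). Tnfsf12 remained the ligand with the highest level, at 5.84 ± 1.89 CPM per kilobase at 3 dpi, against 1.16 ± 0.598 for Tnf.

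Most of the family was higher in SCI+Ctrl than in Sham. The sample titles name no control treatment for Sham, so injury and that treatment cannot be told apart. The injury effect below means both together. At 3 dpi 21 of the 27 tested members passed the threshold in SCI+Ctrl against Sham (edgeR's quasi-likelihood test, Benjamini-Hochberg adjusted p under 0.05 over all genes), 19 higher and 2 lower, while 35.5% of all genes passed, 19.5% higher and 16% lower. Among them were 6 ligands and 13 receptors that rose, and 1 ligand and 1 receptor that fell. The median log2 fold change of the members was 1.5, beside 0.01 for all genes tested. At 35 dpi 15 members passed, 14 higher and 1 lower, while 36.8% of all genes passed, 21.3% higher and 15.5% lower. The members' median was then 1.62, beside 0.04 for all genes. All 14 members that rose at 35 dpi were among the 19 that rose at 3 dpi. These 2 comparisons share no library but come from 1 model with a shared estimate of the spread. The same overlap over all genes is not given here, so the count does not show whether the members stand out. The difference of the injury effect between the days was tested as an interaction, which called 0 of 27 members (0.362% of all genes; 2 members at an unadjusted p under 0.05, and 0 by DESeq2, which called 1.41% of all genes). Without the libraries with high Xist, 1 Sham and 2 SCI+Ctrl libraries are left at 3 dpi and 2 of each at 35 dpi. With 1 Sham library left, the count for 3 dpi cannot show which calls hold and is not used here. At 35 dpi 8 members were called. Of these 7 had been called with all libraries, namely Tnfsf8, Tnfsf13, Tnfrsf1a, Tnfrsf1b, Tnfrsf11b, Tnfrsf13b and Tnfrsf14. The other 8 called at 35 dpi with all libraries did not pass there. The share of all genes called in that fit is not given here, so the count does not show whether members lost calls more than other genes.

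**Figure D1:**
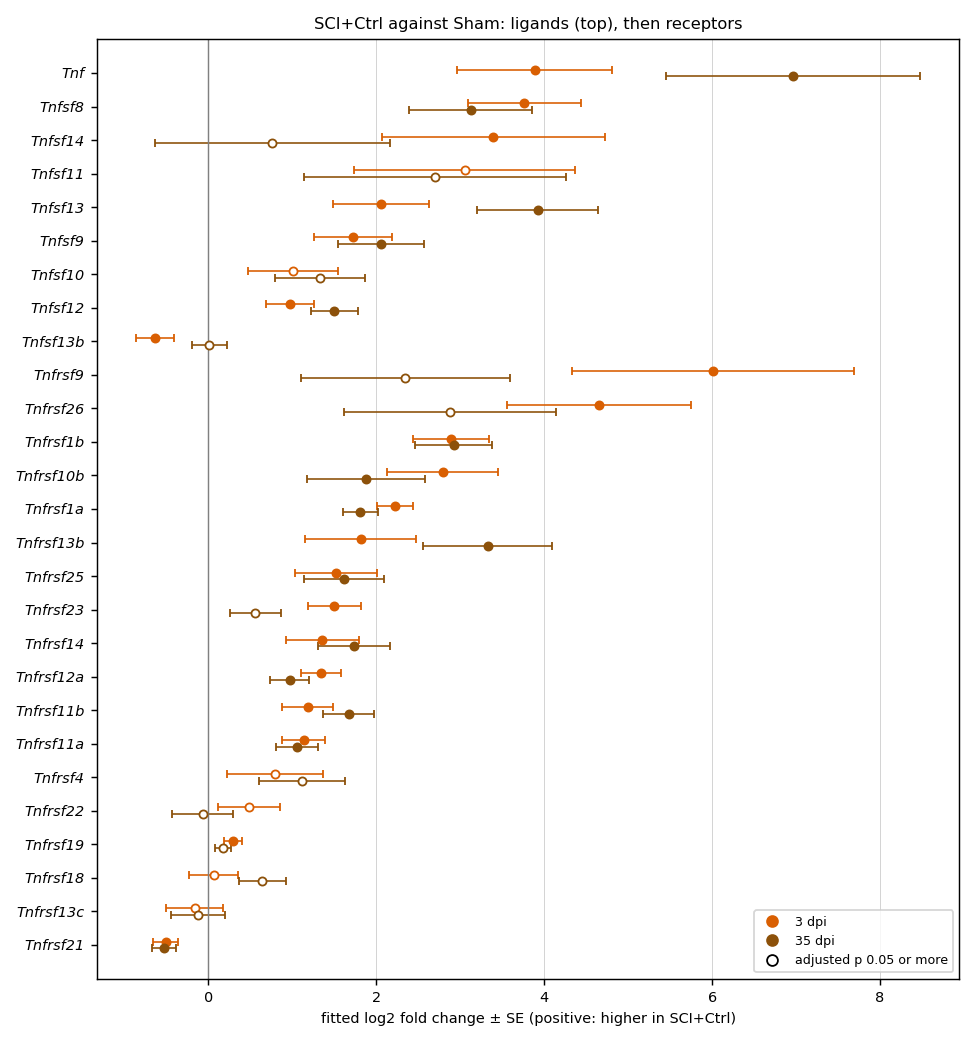
Fitted log2 fold change with its standard error for the 27 tested members, SCI+Ctrl against Sham at 3 dpi (orange) and 35 dpi (brown), with filled points for adjusted p under 0.05. Most points lie to the right of 0, and Tnfrsf21 lies to the left on both days; the points of Tnf at 35 dpi and Tnfrsf9 at 3 dpi rest on Sham groups with 0 counts and depend on the fit's prior count.

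The receptors of TNF gave the clearest rise. Tnfrsf1a was at 22.4, 19.6 and 19.1 CPM in the Sham libraries at 3 dpi and at 109, 77.8 and 98.4 CPM in SCI+Ctrl. The groups were far apart, with the lowest injured library above every Sham library. The log2 fold change was 2.22 ± 0.22 (SE; adjusted p = 1.29e-07, edgeR). At 35 dpi Tnfrsf1a was at 19.5, 19.7 and 16.9 CPM in Sham and at 67.7, 51.6, 56.9 and 85.9 CPM in SCI+Ctrl, again without overlap, a log2 fold change of 1.81 ± 0.21 (adjusted p = 4.97e-07, edgeR). The gene lies at chr6:125349362-125362484 on the plus strand (GRCm38).

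Tnfrsf1b, the second TNF receptor, whose signal is tied to TRAF adaptors, was at 9.52, 4.52 and 7.52 CPM in Sham at 3 dpi and at 84.6, 44.7 and 31.5 CPM in SCI+Ctrl. Replicate 1 of SCI+Ctrl was the highest, and no injured library overlapped the Sham libraries. The log2 fold change was 2.89 ± 0.45 (adjusted p = 3.13e-05, edgeR). At 35 dpi Sham was at 6.1, 4.5 and 3.69 CPM and SCI+Ctrl at 36.1, 29.1, 35.0 and 45.1 CPM, a log2 fold change of 2.92 ± 0.46 (adjusted p = 3.10e-05, edgeR). Both TNF receptors passed the threshold under every alternative tried, on both days. Tnfrsf1b lies at chr4:145213463-145246870 on the minus strand (GRCm38).

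The ligand Tnf was scarce. At 3 dpi it was at 0, 0.0793 and 0.273 CPM in Sham, 5 counts in all, and at 3.02, 1.43 and 1.23 CPM in SCI+Ctrl, 79 counts in all. Replicate 1 of SCI+Ctrl was the highest, and the groups did not overlap. Tnf rose by a log2 fold change of 3.88 ± 0.93 (adjusted p = 0.0026, edgeR). At 35 dpi none of the 3 Sham libraries held a count, and the 4 SCI+Ctrl libraries were at 0.955, 0.810, 0.590 and 1.86 CPM, 57 counts in all. The level was at least 12.8-fold higher than in Sham, taking 3 counts over the Sham group as the limit that a count of 0 allows (adjusted p = 0.00127, edgeR). With only low-Xist libraries Tnf did not pass on either day (log2 fold change 2.28 and adjusted p = 0.249 at 3 dpi; adjusted p = 0.0531 at 35 dpi), and leaving out 1 library moved the log2 fold change at 3 dpi between 3.32 (without Sham replicate 1) and 5.36 (without Sham replicate 3). Such limits and intervals cover counting error only. The gene lies at chr17:35199381-35202007 on the minus strand (GRCm38).

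**Figure D2:**
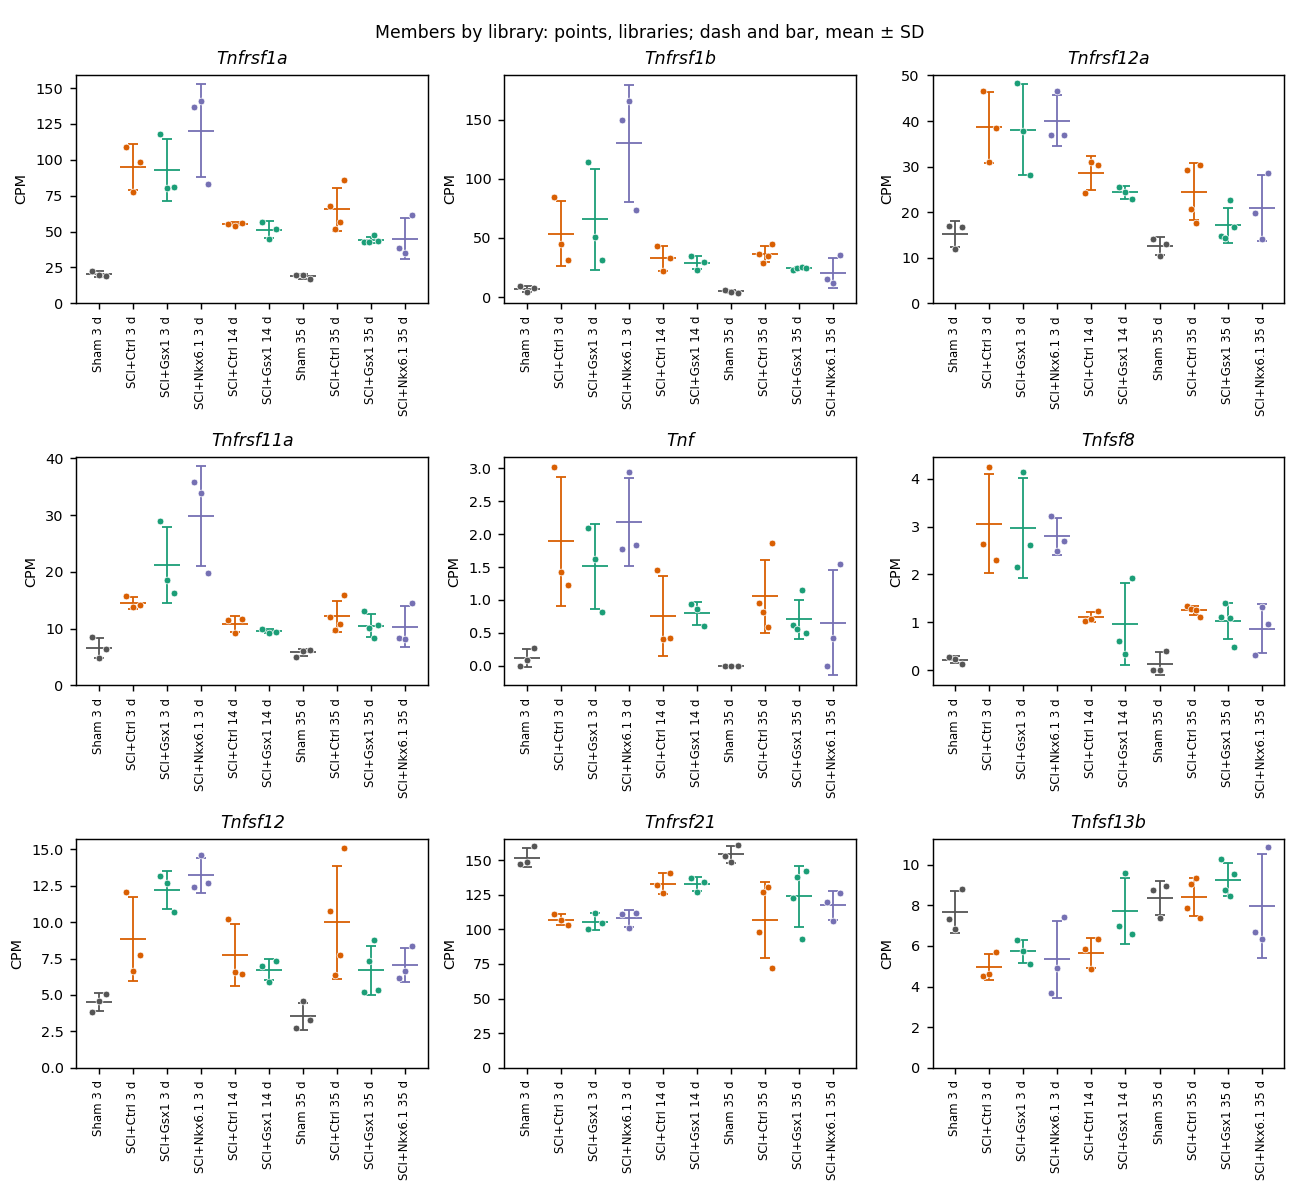
CPM of 9 members in each of the 32 libraries, by group; points are libraries, and the dash and bar are the group mean ± SD. Tnfrsf1a and Tnfrsf1b sit above Sham in every injured library, while Tnfrsf21 sits below it in SCI+Ctrl on both days.

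The TWEAK pair rose together. Tnfrsf12a was at 17.0, 11.9 and 16.7 CPM in Sham and at 46.5, 30.9 and 38.4 CPM in SCI+Ctrl at 3 dpi, without overlap, a log2 fold change of 1.34 ± 0.24 (adjusted p = 0.000171, edgeR). At 35 dpi its group means were 12.5 ± 1.99 CPM (SD, n = 3) and 24.5 ± 6.28 CPM (n = 4), a log2 fold change of 0.97 ± 0.23 (adjusted p = 0.00276, edgeR). Its ligand Tnfsf12 was at 3.84, 4.60 and 5.06 CPM in Sham and at 12.1, 6.68 and 7.77 CPM in SCI+Ctrl at 3 dpi, a log2 fold change of 0.97 ± 0.28 (adjusted p = 0.00951, edgeR). Replicate 1 of SCI+Ctrl carried the highest level of Tnfsf12, and without it the call was lost (adjusted p = 0.0834, edgeR). At 35 dpi Tnfsf12 was at 2.74, 4.58 and 3.28 CPM in Sham and at 10.8, 6.34, 7.75 and 15.1 CPM in SCI+Ctrl, a log2 fold change of 1.5 ± 0.28 (adjusted p = 0.000214, edgeR). Tnfsf12 (chr11:69686250-69695849, minus strand, GRCm38) lies beside Tnfsf13 and is overlapped by an annotated antisense gene, and the strand setting of the counting is not stated, so reads from the antisense gene cannot be told apart.

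The receptor RANK and its decoy also rose. Tnfrsf11a (RANK, the receptor of the bone and immune cytokine RANKL) went from 6.62 ± 1.77 to 14.6 ± 1.05 CPM at 3 dpi (SD, n = 3 and 3; log2 fold change 1.14 ± 0.26, adjusted p = 0.00151, edgeR) and from 5.84 ± 0.658 to 12.2 ± 2.72 CPM at 35 dpi (n = 3 and 4; 1.06 ± 0.25, adjusted p = 0.00221, edgeR). Tnfrsf11b (osteoprotegerin, the soluble decoy that binds RANKL) was at 4.26, 4.52 and 4.24 CPM in Sham and at 9.29, 10.2 and 10.1 CPM in SCI+Ctrl at 3 dpi. Its libraries were tight within each group and did not overlap (log2 fold change 1.18 ± 0.31, adjusted p = 0.00444, edgeR). At 35 dpi the decoy rose by 1.67 ± 0.30 (adjusted p = 0.000183, edgeR). The call of Tnfrsf11a at 35 dpi was lost with only low-Xist libraries (adjusted p = 0.0899, edgeR). The ligand Tnfsf11 (RANKL) had 2 counts in Sham and 19 in SCI+Ctrl at 3 dpi, a ratio of 9.29 (95% exact counting interval 2.24 to 82.2), and did not pass the threshold (adjusted p = 0.0715, edgeR).

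Among the TRAIL receptors, Tnfrsf10b (DR5, the death-domain receptor of TRAIL in the mouse) was at 1.42, 1.98 and 0.410 CPM in Sham and at 6.87, 4.37 and 15.1 CPM in SCI+Ctrl at 3 dpi. Replicate 3 of SCI+Ctrl was the highest and the groups did not overlap (log2 fold change 2.79 ± 0.66, adjusted p = 0.00217, edgeR). At 35 dpi the groups of Tnfrsf10b overlapped (log2 fold change 1.87 ± 0.70, adjusted p = 0.0384, edgeR). That call was lost in 9 of 16 alternatives, among them the fits without replicate 1 or 2 of Sham and without replicate 1, 3 or 4 of SCI+Ctrl, with adjusted p up to 0.277. Tnfrsf23, a mouse decoy receptor for TRAIL, was at 3.91, 2.38 and 3.01 CPM in Sham and at 11.3, 5.24 and 9.93 CPM in SCI+Ctrl at 3 dpi (log2 fold change 1.5 ± 0.31, adjusted p = 0.000721, edgeR). Its neighbour Tnfrsf26 had 3 counts in Sham and 84 in SCI+Ctrl at 3 dpi, a ratio of 27.4 (95% exact counting interval 9.05 to 135), and passed (adjusted p = 0.00209, edgeR). Tnfrsf22, the other decoy of this cluster on mouse chromosome 7, did not pass on either day. The 3 genes are neighbours of similar sequence, so reads could be split between them. The ligand Tnfsf10 (TRAIL) did not pass in the model of all groups, with log2 fold changes of 1.00 ± 0.54 at 3 dpi (adjusted p = 0.146, edgeR) and 1.33 ± 0.54 at 35 dpi (adjusted p = 0.0538). Alternatives called it higher, at 3 dpi in the compared groups alone (adjusted p = 0.0368) and at 35 dpi with DESeq2 (0.028) or without replicate 1 of SCI+Ctrl (0.0106).

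Tnfsf8 (the ligand of CD30) was at 0.284, 0.238 and 0.137 CPM in Sham and at 2.64, 4.24 and 2.31 CPM in SCI+Ctrl at 3 dpi, and was the most clearly raised ligand by adjusted p (log2 fold change 3.76 ± 0.67, adjusted p = 0.000143, edgeR). The Sham group held 9 counts of Tnfsf8 and SCI+Ctrl 133, and the groups did not overlap. Tnfsf9 (the ligand of CD137) went from 0.575 ± 0.400 to 1.89 ± 0.0435 CPM (SD, n = 3 and 3; log2 fold change 1.72 ± 0.46, adjusted p = 0.00558, edgeR). Its receptor Tnfrsf9 (CD137) had 0 counts in the 3 Sham libraries and 22 in SCI+Ctrl, at least 7.17-fold higher (adjusted p = 0.00781, edgeR). Replicate 1 of SCI+Ctrl held most of those counts, at 1.28 CPM against 0.0624 and 0.308 in replicates 2 and 3, and without it the call was lost (adjusted p = 0.0874, edgeR).

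Tnfrsf14 (HVEM, a receptor of LIGHT) rose by a log2 fold change of 1.36 ± 0.43 at 3 dpi (adjusted p = 0.0168, edgeR) and by 1.74 ± 0.43 at 35 dpi (adjusted p = 0.00348). The first of these calls was lost without replicate 3 of Sham or replicate 1 of SCI+Ctrl (adjusted p up to 0.105 over all alternatives). LIGHT itself, Tnfsf14, had 2 counts in Sham and 24 in SCI+Ctrl at 3 dpi, a ratio of 11.7 (95% exact counting interval 2.91 to 102), and overlapping groups. Its adjusted p of 0.0479 (edgeR) was lost without replicate 2 or 3 of Sham or replicate 1 or 3 of SCI+Ctrl (adjusted p up to 0.194), without the expression filter (0.0581) and with only low-Xist libraries (0.263). Tnfrsf25 (DR3, a death-domain receptor of T cells) rose by 1.52 ± 0.49 at 3 dpi (adjusted p = 0.0177, edgeR) and by 1.62 ± 0.48 at 35 dpi (adjusted p = 0.0113). At 3 dpi that call was lost without replicate 3 of Sham or of SCI+Ctrl (adjusted p up to 0.0986). At 35 dpi it was lost without replicate 3 of Sham or replicate 4 of SCI+Ctrl (up to 0.0651), in the compared groups alone (0.0777), without the mixed-sex libraries (0.0719) and with only low-Xist libraries (0.173). Tnfrsf18 (GITR) and Tnfrsf4 (OX40), both receptors of activated T cells, passed on neither day.

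The BAFF and APRIL group split. Tnfsf13b (BAFF, a survival factor of B cells) was at 7.32, 6.82 and 8.82 CPM in Sham and at 4.53, 4.62 and 5.70 CPM in SCI+Ctrl at 3 dpi, without overlap, and fell (log2 fold change -0.63 ± 0.23, adjusted p = 0.0312, edgeR). That call was lost without replicate 1 or 3 of Sham or replicate 1 or 2 of SCI+Ctrl (adjusted p up to 0.126), without the expression filter (0.0559) and with only low-Xist libraries (0.148). At 35 dpi Tnfsf13b was at 8.36 ± 0.855 CPM in Sham and 8.41 ± 0.949 CPM in SCI+Ctrl, and the 95% interval of its log2 fold change was -0.42 to 0.44. Tnfsf13 (APRIL, a related ligand) rose at 3 dpi from 0.249 ± 0.134 to 1.04 ± 0.0770 CPM (SD, n = 3 and 3; log2 fold change 2.05 ± 0.57, adjusted p = 0.00717, edgeR). At 35 dpi it had 2 counts in Sham and 52 in SCI+Ctrl, a ratio of 17.6 (95% exact counting interval 4.63 to 149; adjusted p = 0.000193, edgeR). Tnfrsf13b (TACI, a receptor of both ligands) rose by 1.82 ± 0.66 at 3 dpi (adjusted p = 0.0336, edgeR) and by 3.33 ± 0.77 at 35 dpi (adjusted p = 0.00188). At 3 dpi that call was lost without replicate 1 or 2 of Sham or replicate 1 or 3 of SCI+Ctrl, with adjusted p up to 0.673 over all alternatives. Tnfrsf13c (the BAFF receptor) passed on neither day, with 95% intervals of -0.86 to 0.54 at 3 dpi and -0.79 to 0.54 at 35 dpi on the log2 scale.

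Tnfrsf21 and Tnfrsf19, the most abundant members per kilobase in the uninjured cord, had the smallest fold changes of the members called at 3 dpi. Tnfrsf21 was at 147, 149 and 160 CPM in Sham and at 111, 107 and 103 CPM in SCI+Ctrl at 3 dpi. All injured libraries were below all Sham libraries, and the receptor fell (log2 fold change -0.51 ± 0.15, adjusted p = 0.0104, edgeR), a call lost without replicate 3 of SCI+Ctrl (adjusted p = 0.0546). At 35 dpi it was at 153, 149 and 161 CPM in Sham and at 98.3, 127, 131 and 72.0 CPM in SCI+Ctrl, again without overlap and with the lowest level in replicate 4 (log2 fold change -0.53 ± 0.14, adjusted p = 0.00531, edgeR), a call lost in the fit of the compared groups alone (adjusted p = 0.111) and with only low-Xist libraries (log2 fold change -0.21, adjusted p = 0.363). The summed level of 5 neuron markers (Snap25, Rbfox3, Syt1, Tubb3 and Stmn2; 5 called lower at 3 dpi and 4 at 35 dpi) went over the same groups from 3870 to 4000 CPM in Sham to 1860 to 2250 CPM in SCI+Ctrl at 3 dpi, and from 4420 to 4590 CPM to 1670 to 3200 CPM at 35 dpi, lowest in replicate 4 as well; their part in the result was not tested. Tnfrsf19 rose by only 0.30 ± 0.11 on the log2 scale at 3 dpi (adjusted p = 0.0313, edgeR), from 51.5 ± 3.83 to 63.2 ± 5.94 CPM (SD, n = 3 and 3). That call was lost without replicate 1 or 3 of Sham or replicate 1 or 2 of SCI+Ctrl (adjusted p up to 0.129), with only low-Xist libraries (0.0821), with high Xist as a covariate (0.0525) and without the mixed-sex libraries (0.0589).

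Markers of several cell types moved in the same comparisons, in which 19.5% of all genes were called higher at 3 dpi and 21.3% at 35 dpi. Of the 7 macrophage markers 6 were matched in the table (Cd68, Lyz2, Ms4a7, Mrc1, Gpnmb and Itgax; Adgre1 was not matched), and 5 were called higher at 3 dpi and 6 at 35 dpi. Their summed level ranged from 51.8 to 57.5 CPM in Sham and from 1200 to 2230 CPM in SCI+Ctrl at 3 dpi, and from 15.2 to 27.7 CPM and 1150 to 2600 CPM at 35 dpi. The 6 microglia markers ranged from 264 to 285 CPM in Sham and 771 to 809 CPM in SCI+Ctrl at 3 dpi. The 7 T and NK cell markers summed to at most 1.81 CPM in SCI+Ctrl at 3 dpi, with 0 called, and to 3.98 to 16.4 CPM in SCI+Ctrl at 35 dpi, with all 7 called higher. The 5 neutrophil markers in the table ranged from 29.5 to 62.0 CPM in Sham and 91.1 to 164 CPM in SCI+Ctrl at 3 dpi, with 0 called. Of 5 fibroblast markers 5 were called higher on both days, of 5 endothelial markers 5 at 3 dpi and 4 at 35 dpi, of 3 oligodendrocyte precursor markers 3 and 2, and of 5 astrocyte markers 3 and 4. Of 5 skeletal muscle markers 4 were called higher at 3 dpi and 0 at 35 dpi, with a summed level of 243 CPM in replicate 3 of SCI+Ctrl at 3 dpi and 435 CPM in replicate 2 of SCI+Nkx6.1, against 2.6 to 3.65 CPM in Sham. The part of these cell types in the rise of the family was not tested. In whole tissue a change in the number of cells of a type and a change in RNA per cell cannot be told apart.

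**Figure D3:**
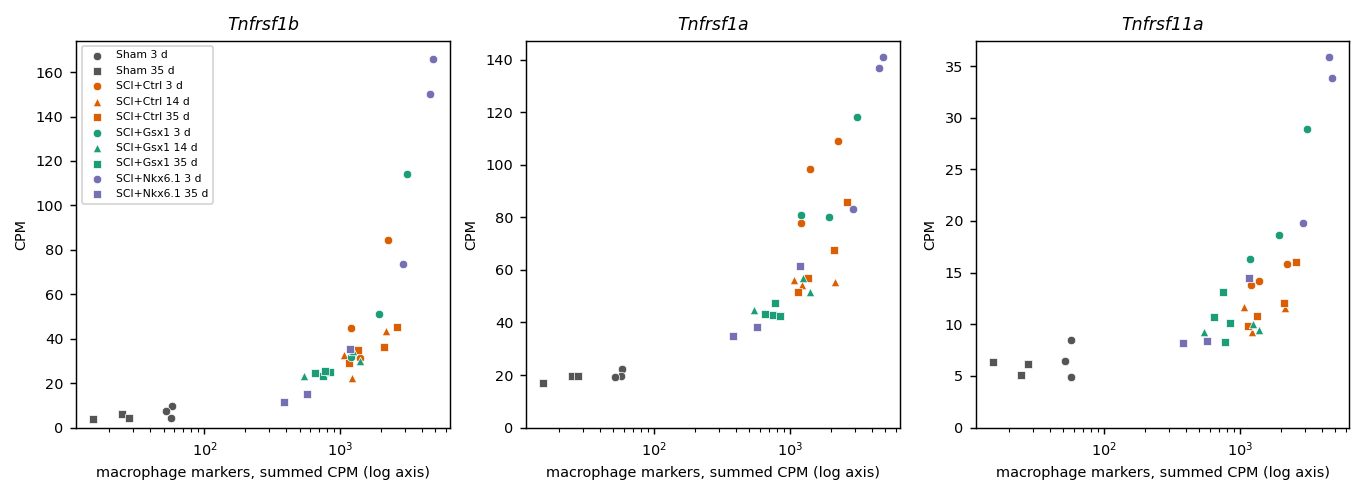
CPM of Tnfrsf1b, Tnfrsf1a and Tnfrsf11a (vertical) against the summed CPM of 6 macrophage markers (horizontal, log axis), 1 point per library, coloured by treatment and shaped by day. Sham libraries sit at 15.2 to 57.5 CPM of the markers, and replicates 1 and 2 of SCI+Nkx6.1 at 3 dpi sit highest in both, at 4520 and 4780 CPM of the markers.

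NF-κB, the transcription factor that most of these receptors switch on, is known to act on promoters of the family itself, so the promoters were searched for a κB pattern. RefSeq promoter windows (GRCm38.p6, 250 bases before to 50 after a start) were found for 25 of the 32 members. The pattern of GGG, any 2 bases and TTTCC, searched on both strands, was present in 1.63% of the 32851 promoter windows of all genes and in 2 of the members' 29 windows, those of Tnfrsf9 and Tnfrsf25. The match began 43 bases before the start in Tnfrsf9 (chr4:150927749-150928048, plus strand) and 218 bases before it in Tnfrsf25 (chr4:152115684-152115983, plus strand), where it lies on the opposite strand. Each of the 2 genes also has a window without a match (Tnfrsf9, chr4:150919905-150920204, and Tnfrsf25, chr4:152116093-152116392). Both genes were called higher at 3 dpi, as were 19 of the 27 tested members, so the calls do not set them apart. The windows of Tnfrsf1a (chr6:125349473-125349772, plus strand) and Tnf (chr17:35201958-35202257, minus strand), which gave the clearest rise and the family its name, did not hold these letters; κB sites of other spelling or farther away were not searched. Capitals mark the matches.
Tnfrsf9: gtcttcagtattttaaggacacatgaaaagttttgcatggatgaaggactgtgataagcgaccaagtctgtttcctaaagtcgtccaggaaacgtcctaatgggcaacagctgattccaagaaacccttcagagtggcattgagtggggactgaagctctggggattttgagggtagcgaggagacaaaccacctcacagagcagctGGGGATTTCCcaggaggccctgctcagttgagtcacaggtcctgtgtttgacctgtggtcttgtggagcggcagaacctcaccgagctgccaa
Tnfrsf25: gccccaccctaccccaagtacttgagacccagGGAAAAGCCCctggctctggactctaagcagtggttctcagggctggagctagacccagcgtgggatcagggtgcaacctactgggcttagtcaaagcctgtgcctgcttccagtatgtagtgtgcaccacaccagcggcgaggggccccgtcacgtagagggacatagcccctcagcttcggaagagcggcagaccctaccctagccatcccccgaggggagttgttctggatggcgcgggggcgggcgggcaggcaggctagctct
Tnfrsf1a: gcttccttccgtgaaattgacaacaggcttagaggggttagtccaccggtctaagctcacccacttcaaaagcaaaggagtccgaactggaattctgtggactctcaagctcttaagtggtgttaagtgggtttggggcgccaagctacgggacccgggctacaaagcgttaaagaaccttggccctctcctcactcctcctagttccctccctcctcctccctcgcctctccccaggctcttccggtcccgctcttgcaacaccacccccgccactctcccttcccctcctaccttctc
Tnf: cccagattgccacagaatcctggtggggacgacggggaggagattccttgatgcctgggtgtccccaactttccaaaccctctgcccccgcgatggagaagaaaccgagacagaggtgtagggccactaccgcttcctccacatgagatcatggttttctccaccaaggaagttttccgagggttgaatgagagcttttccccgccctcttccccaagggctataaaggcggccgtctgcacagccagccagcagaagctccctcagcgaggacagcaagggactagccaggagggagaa

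Relatives with other symbols and the signalling machinery were counted in the same comparisons. Of all genes 19.5% were called higher at 3 dpi and 21.3% at 35 dpi. Of 14 family members outside the symbol rule, 9 were tested, and 5 were called higher and 0 lower at 3 dpi (median log2 fold change 1.45). These included Ltbr, the lymphotoxin-β receptor (13.1 to 35.7 CPM, log2 fold change 1.45 ± 0.23, adjusted p = 3.29e-05, edgeR), Cd40, a receptor of antigen-presenting cells (0.509 to 2.99 CPM, 2.54 ± 0.43, adjusted p = 7.00e-05), and Fas, the receptor of Fas ligand (2.66 to 9.57 CPM, 1.84 ± 0.37, adjusted p = 0.00048). At 35 dpi 4 were called higher and 1, Relt, lower. Of 32 adaptors and NF-κB genes, all tested, 20 were called higher and 1 lower at 3 dpi (median 0.68), and 19 higher and 1 lower at 35 dpi (median 0.64). Cflar, an inhibitor of caspase 8 at these receptors, went from 27.7 to 64.6 CPM at 3 dpi (log2 fold change 1.22 ± 0.15, adjusted p = 1.80e-06, edgeR), and Casp8, the protease itself, from 3.50 to 21.0 CPM (2.58 ± 0.36, adjusted p = 6.33e-06).

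Of 17 tested genes known to be induced by TNF, 14 were called higher and 1 lower at 3 dpi (median log2 fold change 2.72), and 11 higher and 1 lower at 35 dpi (median 2.93, or 2.00 with the genes at 0 counts in Sham set to their lower bound). Ccl2, a chemokine for monocytes, went from 0.534 to 22.6 CPM at 3 dpi (5.38 ± 0.67, adjusted p = 1.66e-06, edgeR). Icam1, an adhesion molecule for leukocytes, went from 3.60 to 24.0 CPM at 3 dpi (2.72 ± 0.39, adjusted p = 9.07e-06) and from 1.38 to 29.9 CPM at 35 dpi (4.42 ± 0.43, adjusted p = 8.47e-08). These genes answer to many signals. Of all genes 19.5% were called higher at 3 dpi (median 0.01) and 21.3% at 35 dpi (median 0.04).

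**Figure D4:**
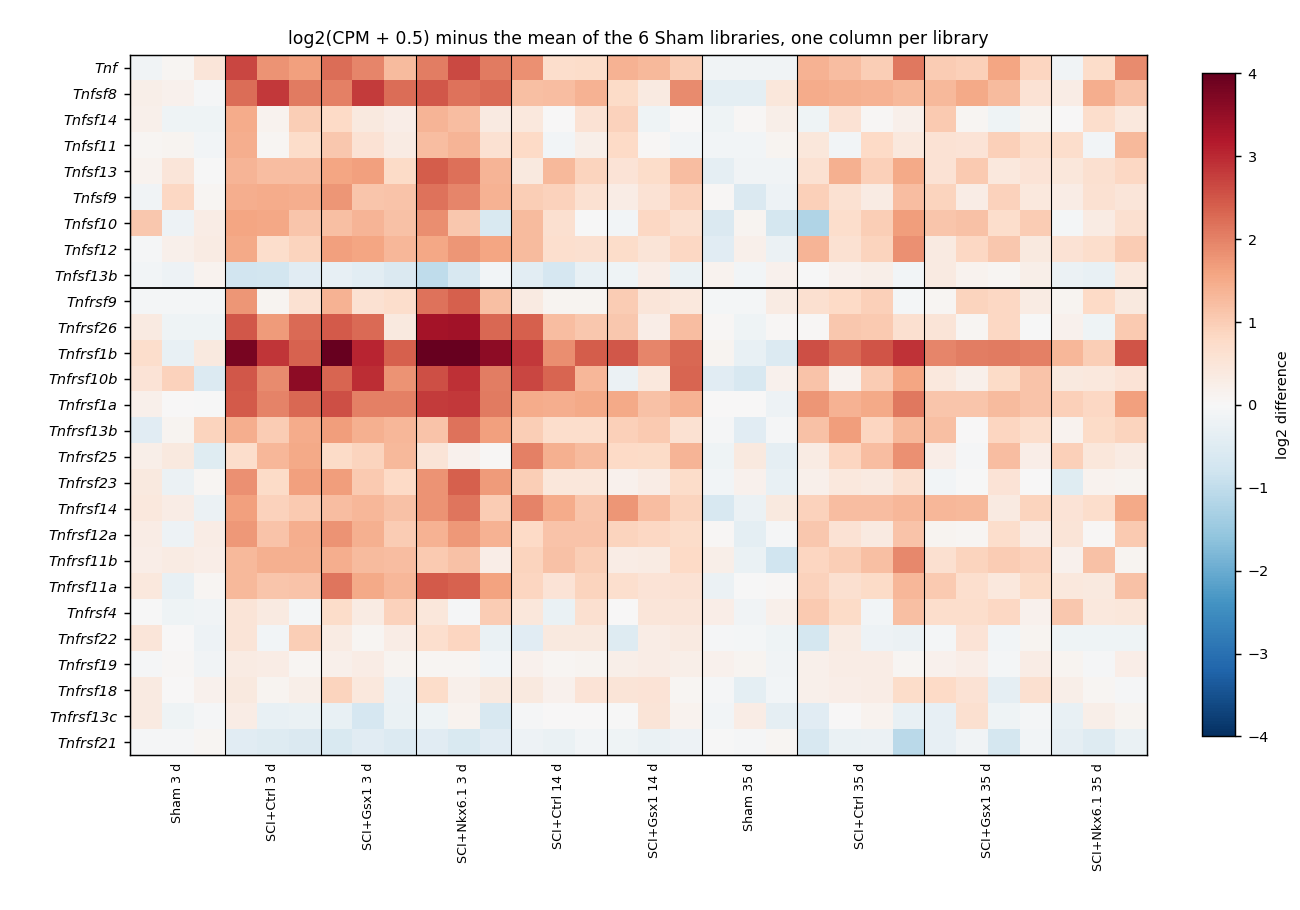
log2(CPM + 0.5) of the 27 tested members (rows, ligands above the line, receptors below) in each of the 32 libraries (columns, by group), minus the mean of the 6 Sham libraries. Red is above Sham and blue below; the strongest red is in Tnfrsf1b at 3 dpi, and Tnfrsf21 is blue in all 9 injured libraries of that day.

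Over time in the injured control cord few members passed the threshold, near the share of all genes. The members' median log2 fold change against 3 dpi was -0.55 at 14 dpi and -0.54 at 35 dpi, beside 0.01 and 0.03 for all genes. From 14 to 35 dpi it was 0.14, beside 0.02. Between the Sham groups of 35 and 3 dpi it was -0.35, beside -0.004. Missed thresholds do not show equal levels. From 3 to 14 dpi 1 of 27 members passed, in the lower direction (3.06% of all genes, 2.42% lower and 0.644% higher). Tnfrsf1a fell from 109, 77.8 and 98.4 CPM at 3 dpi to 55.5, 54.2 and 56.3 CPM at 14 dpi, without overlap (log2 fold change -0.78 ± 0.20, adjusted p = 0.0335, edgeR). This call was lost without any 1 of the 3 SCI+Ctrl libraries at 14 dpi, or without replicate 1 or 3 at 3 dpi, with adjusted p up to 0.165. From 14 to 35 dpi 0 members passed (1.32% of all genes; edgeR; 3 members at an unadjusted p under 0.05, and 0 by DESeq2, which called 6.46% of all genes). No Sham group was analysed at 14 dpi, and no test was made there. Tnfrsf1b was at 43.4, 22.1 and 32.8 CPM in SCI+Ctrl at 14 dpi, and no Sham library of either day was above 9.52 CPM.

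From 3 to 35 dpi 3 members passed, 1 higher and 2 lower (11% of all genes, 5.04% higher and 5.97% lower). Tnfrsf23 fell from 8.81 ± 3.16 CPM (SD, n = 3) to 3.98 ± 0.586 CPM (n = 4; log2 fold change -1.14 ± 0.28, adjusted p = 0.0102, edgeR), and Tnfrsf10b from 8.77 ± 5.61 to 2.22 ± 1.02 CPM (-1.98 ± 0.57, adjusted p = 0.025). Tnfsf13b rose from 4.95 ± 0.649 to 8.41 ± 0.949 CPM (0.77 ± 0.21, adjusted p = 0.0207, edgeR). The call of Tnfrsf23 was lost without replicate 1 of SCI+Ctrl at 3 dpi, that of Tnfrsf10b without replicate 3 at 3 dpi or replicate 2 at 35 dpi, and that of Tnfsf13b without replicate 1 or 2 at 3 dpi or replicate 3 at 35 dpi. The count itself fell to 1 without replicate 1 at 3 dpi and rose to 5 without replicate 4 at 35 dpi. In the fit of the compared groups alone 0 members passed, and with DESeq2, which called 14.2% of all genes, 6. Between the Sham groups of 35 and 3 dpi 0 members passed (0.00613% of all genes; edgeR; 2 members at an unadjusted p under 0.05, and 0 by DESeq2, which called 0.262% of all genes).

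Gsx1 did not move any member past the threshold against SCI+Ctrl of the same day. At 3, 14 and 35 dpi 0 of 27 members passed with edgeR, as did 0% of all 16314 genes, with 1, 0 and 3 members at an unadjusted p under 0.05. DESeq2 called 0 members on each day, and 0%, 0.306% and 0.215% of the genes to which it gave an adjusted p. At 35 dpi these were only 6509 genes. Tnfsf12 and Tnfrsf12a were not among them, so the 0 of DESeq2 does not cover all members that day. The members' median log2 differences were -0.05, -0.11 and -0.27, beside 0.00, 0.01 and -0.03 for all genes. The following were singled out after their values were seen. At 35 dpi Tnfrsf1a was at 67.7, 51.6, 56.9 and 85.9 CPM in SCI+Ctrl and at 43.0, 42.5, 47.6 and 43.1 CPM in SCI+Gsx1. All 4 SCI+Gsx1 libraries were below all 4 SCI+Ctrl libraries (log2 difference -0.57 ± 0.18, 95% interval -0.94 to -0.21, adjusted p = 0.194, edgeR). Tnfrsf1b showed the same separation, at 23.2, 24.8, 25.5 and 24.7 CPM in SCI+Gsx1 against 36.1, 29.1, 35.0 and 45.1 CPM in SCI+Ctrl (log2 difference -0.56 ± 0.36, 95% interval -1.30 to 0.17). For Tnfsf12 the means were 6.68 and 10.0 CPM (-0.58 ± 0.24, adjusted p = 0.224, edgeR) and for Tnfrsf12a 17.2 and 24.5 CPM (-0.51 ± 0.21, adjusted p = 0.224), both with overlapping libraries.

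Without replicate 2 of SCI+Ctrl at 35 dpi, the library with the lowest Tnfrsf1a of its group, 2 members passed, Tnfrsf1a (adjusted p = 0.0339, edgeR) and Tnfsf12 (adjusted p = 0.0495). The share of all genes called in that fit is not given here. The macrophage markers summed to 647 to 840 CPM in SCI+Gsx1 and 1150 to 2600 CPM in SCI+Ctrl at 35 dpi, with 0 of 6 called and no overlap; their part in the lower receptor levels was not tested. At 3 dpi Tnfrsf11a was at 28.9, 18.6 and 16.3 CPM in SCI+Gsx1 and at 15.8, 13.8 and 14.2 CPM in SCI+Ctrl, without overlap (log2 difference 0.54 ± 0.25, adjusted p = 1, edgeR). The change of the Gsx1 effect between 3 and 35 dpi called 0 members (0% of all genes; edgeR; 2 members at an unadjusted p under 0.05, and 0 by DESeq2).

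**Figure D5:**
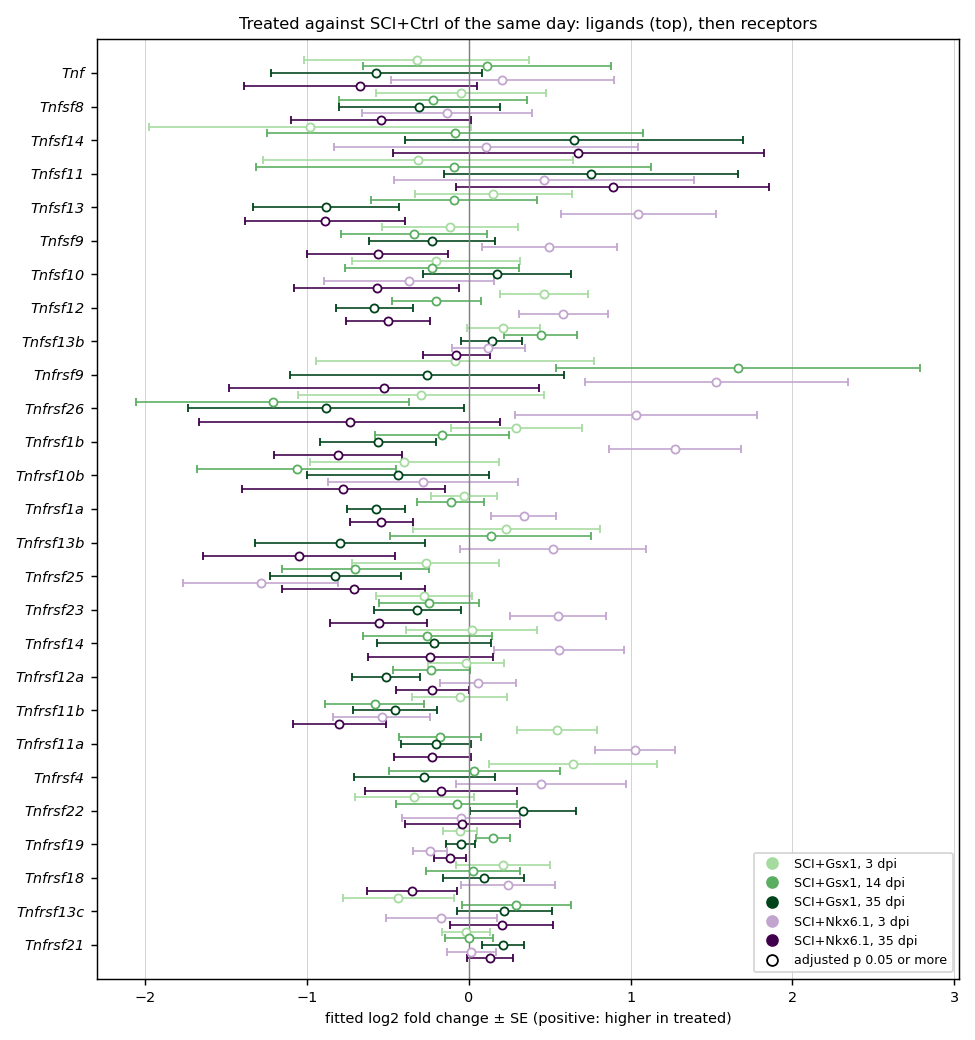
Fitted log2 difference with its standard error for the 27 tested members, treated against SCI+Ctrl of the same day (green, SCI+Gsx1 at 3, 14 and 35 dpi; purple, SCI+Nkx6.1 at 3 and 35 dpi). All points are open, since none had an adjusted p under 0.05; Tnfrsf11a and Tnfrsf1b lie to the right of 0 in SCI+Nkx6.1 at 3 dpi, at 1.03 and 1.27.

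Nkx6.1 also gave no call, but the highest levels of Tnfrsf1a, Tnfrsf1b and Tnfrsf11a among the 32 libraries were in replicates 1 and 2 of SCI+Nkx6.1 at 3 dpi. With edgeR 0 of 27 members passed at 3 dpi (0.337% of all genes; 6 members at an unadjusted p under 0.05, and 1, Tnfrsf11a, by DESeq2 with an adjusted p of 0.00885 and 3.01% of all genes called). Tnfrsf11a was at 35.9, 33.8 and 19.8 CPM in SCI+Nkx6.1 and at 15.8, 13.8 and 14.2 CPM in SCI+Ctrl, without overlap. Its log2 difference was 1.03 ± 0.25 (95% interval 0.52 to 1.54; adjusted p = 0.0621, edgeR, and 0.0038 to 0.335 over the alternatives). Tnfrsf1b was at 150, 166 and 73.6 CPM against 84.6, 44.7 and 31.5 CPM, and replicate 3 of SCI+Nkx6.1 lay below replicate 1 of SCI+Ctrl (log2 difference 1.27 ± 0.41, adjusted p = 0.124, edgeR). Without replicate 1 of SCI+Ctrl both receptors passed, with adjusted p of 0.0483 for Tnfrsf11a and 0.0459 for Tnfrsf1b, and without replicate 3 of SCI+Nkx6.1 they did with 0.0038 and 0.0164. The macrophage markers summed to 4520, 4780 and 2880 CPM in the SCI+Nkx6.1 libraries, in the same order of replicates 1 and 2 above 3, and to 2230, 1200 and 1390 CPM in SCI+Ctrl; their part in the result was not tested.

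Tnfrsf25, which did not pass, was at 1.31, 0.940 and 0.808 CPM in SCI+Nkx6.1 and 1.59, 2.68 and 3.16 CPM in SCI+Ctrl at 3 dpi (log2 difference -1.29 ± 0.48, adjusted p = 0.168, edgeR). The members' median log2 difference between SCI+Nkx6.1 and SCI+Ctrl was 0.24 at 3 dpi and -0.53 at 35 dpi, beside -0.003 and -0.03 for all genes. At 35 dpi 0 members passed between these groups (edgeR, 0% of all genes), with 2 at an unadjusted p under 0.05 and 0 by DESeq2. The lowest unadjusted p belonged to Tnfrsf1a, at 38.4, 35.0 and 61.6 CPM in SCI+Nkx6.1 (log2 difference -0.54 ± 0.19, adjusted p = 0.337, edgeR), and to Tnfrsf11b, at 3.95, 8.40 and 3.84 CPM (-0.80 ± 0.29, adjusted p = 0.337). Over the alternatives other than leaving out 1 library, these differences ranged from -0.53 to -0.12 for Tnfrsf1a and from -1.05 to -0.51 for Tnfrsf11b. Replicate 2 of SCI+Nkx6.1 and replicates 1 and 4 of SCI+Ctrl held high Xist at 35 dpi. Replicate 3 of SCI+Nkx6.1 was the highest of its group in Tnfrsf1a, Tnfrsf1b (35.2 CPM against 15.0 and 11.6) and the macrophage markers (1170 CPM against 570 and 382).

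The effect of Nkx6.1 differed between the days for 2 members, the receptors Tnfrsf1b and Tnfrsf11a, both lower at 35 dpi than at 3 dpi (2.3% of all genes, 1.87% lower and 0.435% higher). Tnfrsf1b was 1.27 higher on the log2 scale than in SCI+Ctrl at 3 dpi and 0.81 lower at 35 dpi (log2 difference of the effects -2.08 ± 0.57, adjusted p = 0.0495, edgeR). For Tnfrsf11a the difference of the effects was -1.25 ± 0.34 (adjusted p = 0.0496). Each call was lost in 15 of 22 alternatives. Among them were the fits without replicate 2 or 3 of SCI+Ctrl or replicate 1 or 2 of SCI+Nkx6.1 at 3 dpi. The calls were also lost without replicate 1 or 4 of SCI+Ctrl or replicate 1 or 2 of SCI+Nkx6.1 at 35 dpi. In turn 4 members passed without replicate 3 of SCI+Nkx6.1 on either day or replicate 2 of SCI+Ctrl at 35 dpi. The shares of all genes called in these fits are not given here.

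Between the treatments, SCI+Gsx1 and SCI+Nkx6.1 differed in 0 members at 3 dpi (0.0797% of all genes; edgeR; 3 members at an unadjusted p under 0.05, and 0 by DESeq2, which called 0.879% of all genes) and in 0 at 35 dpi (0% of all genes; 0 at an unadjusted p under 0.05, and 0 by DESeq2). At 3 dpi Tnfrsf23 was at 10.1, 6.36 and 5.31 CPM in SCI+Gsx1 and at 11.2, 17.1 and 10.3 CPM in SCI+Nkx6.1, without overlap (log2 difference -0.83 ± 0.30, adjusted p = 0.254, edgeR). Without replicate 1 of SCI+Gsx1 at 3 dpi 2 members passed, in a fit whose share of all genes called is not given here.

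The treated groups were also set against Sham of the same day. These comparisons share the Sham libraries with the SCI+Ctrl comparison and are no independent repeat of it. At 3 dpi SCI+Gsx1 had 18 members higher and 1 lower (37.7% of all genes called, 20.3% higher and 17.4% lower), and SCI+Nkx6.1 had 17 higher and 1 lower (54.3% of all genes, 27.9% higher and 26.4% lower). At 35 dpi SCI+Gsx1 had 11 members higher and 0 lower (9.8% of all genes, 8.63% higher and 1.17% lower), and SCI+Nkx6.1 had 7 higher and 0 lower (7.2% of all genes, 6.37% higher and 0.821% lower). The 7 were Tnf, Tnfsf8, Tnfsf12, Tnfsf13, Tnfrsf14, Tnfrsf1a and Tnfrsf1b. At 35 dpi Tnfrsf1a was 1.81 above Sham on the log2 scale in SCI+Ctrl, 1.24 in SCI+Gsx1 and 1.27 in SCI+Nkx6.1, and Tnfrsf1b was 2.92, 2.36 and 2.11 above it. The counts at 35 dpi moved with single libraries: SCI+Gsx1 gave 5, 6 and 6 members without Sham replicate 1, 2 or 3 and 7 without its own replicate 1, and SCI+Nkx6.1 gave 2 and 4 without Sham replicate 1 or 2 and 1 without its own replicate 3.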

How the data were processed

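The authors deposited raw read counts per gene symbol for 32 libraries, with no normalization. The submitters' processing notes list the tools HTSeq, HISAT2, DESeq2 and SAMtools and the builds GRCm38 and mm10, without roles. The annotation, the strand setting and the handling of multiply matching reads are not given there. Whether the replicates are different animals is not labelled; the p-values reflect variation among the libraries, which could be technical.

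Genes were tested with edgeR 4.0.16 (R 4.3.3; TMM scaling; expression filter with minimum count 10 and minimum total count 15; 1 model of 10 groups without covariates; 22 residual and 4.4 prior degrees of freedom; common biological coefficient of variation 20.8%), with Benjamini-Hochberg adjustment over all 16314 genes. The scripts were tested on simulated counts. DESeq2 1.42.0, other scaling, no filter, the compared groups alone, sex terms, 2 covariate genes, a replicate block and leaving out each library were alternatives. The shares given for DESeq2 are of the genes to which it gave an adjusted p. These were 6509 for SCI+Gsx1 against SCI+Ctrl at 35 dpi and 15046 to 16307 in the other comparisons quoted. SE is the log2 fold change over the square root of F. CPM per kilobase used the union of exons in GENCODE M21, which holds all 32 members, and coordinates are 1-based GRCm38. Groups with 1 to 3 counts are given as count ratios.

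Members, lists, tests and the naming rule were chosen with earlier results of these data known. By the naming rule every member may be named, called members with a mean of at least 1 CPM are described in full (at most 10 in each direction), and at most 4 genes of another list are named per comparison. Same-numbered samples deviated together (every correlation over 0.1) in 1 of 17 comparisons, SCI+Gsx1 against Sham at 3 dpi (r = 0.28, 0.24 and 0.14); with the replicate block that comparison called 18 members in place of 19, Tnfrsf25 being lost.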

Additional observations from a re-analysis of the deposited data

Results flagged for a closer look

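Dixon's test was applied to the CPM of the 27 tested members in the 2 groups of 4 libraries, 54 in all, and chance alone picks out about 1 in 20 of such tests. It picked out 5 values. In SCI+Ctrl at 35 dpi replicate 4 stood above the other libraries in Tnfrsf18 (5.73 CPM). In SCI+Gsx1 at 35 dpi replicate 3 stood above the others in Tnfrsf1a (47.6 CPM), Tnfrsf23 (4.42 CPM) and Tnfrsf25 (2.48 CPM), and replicate 1 stood above them in Tnfsf14 (0.661 CPM).

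The interaction test of edgeR called a difference of the Nkx6.1 effect between 3 and 35 dpi in 2 members, with 2.3% of all genes called. These were Tnfrsf11a (difference of the log2 effects -1.25, adjusted p = 0.0496) and Tnfrsf1b (-2.08, adjusted p = 0.0495). Both calls were just under the threshold, and each was lost in 15 of 22 alternatives.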

How the results depend on the processing

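Of 97 calls of a member in a comparison, 42 kept their call under every alternative run, 55 lost it under at least 1, and 0 reversed. Leaving out 1 library at a time gave 14 to 20 members at 3 dpi and 13 to 15 at 35 dpi for SCI+Ctrl against Sham, 0 to 2 for SCI+Gsx1 against SCI+Ctrl at 35 dpi, 0 to 2 for SCI+Nkx6.1 against SCI+Ctrl at 3 dpi and 0 to 2 between the treatments at 3 dpi. It gave 0 to 2 from 3 to 14 dpi, 1 to 5 from 3 to 35 dpi, 14 to 18 and 5 to 10 for SCI+Gsx1 against Sham at 3 and 35 dpi, 16 to 20 and 1 to 8 for SCI+Nkx6.1 against Sham, and 0 to 4 for the change of the Nkx6.1 effect.

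With only low-Xist libraries the injury comparison at 35 dpi called 8 members in place of 15, with 2 libraries left in each group. At 3 dpi the same setting gave 9 in place of 21. Only 1 Sham library was left there, so the 9 cannot show which calls hold, and nothing is concluded from it. SCI+Ctrl from 3 to 35 dpi (3 members) gave 5 with DESeq2's size factors in edgeR, without the filter or without the libraries of mixed sex, 6 with DESeq2, 8 with the genes H2-Bl and Rpl29, which lie at 2 levels across libraries, as covariates, and 0 with the compared groups alone or only low-Xist libraries. From 3 to 14 dpi (1 member) the compared groups alone gave 3, and low-Xist libraries or high Xist as a covariate 0. SCI+Nkx6.1 against SCI+Ctrl at 3 dpi (0 members) gave 1 with DESeq2, high Xist as a covariate or no mixed-sex libraries, and 2 with low-Xist libraries. The change of the Nkx6.1 effect (2 members) gave 0 with DESeq2's size factors, no filter, the compared groups alone, low-Xist libraries, no mixed-sex libraries or the 2 covariate genes. Against Sham at 35 dpi SCI+Gsx1 (11 members) gave 6 with the covariate genes, and SCI+Nkx6.1 (7 members) 4 with the compared groups alone. The shares of all genes called in these fits are not given here, and the causes were not tested.

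With the replicate block, SCI+Nkx6.1 against SCI+Ctrl at 3 dpi gave 1 member, the change of its effect 0, SCI+Gsx1 against Sham at 35 dpi 7 and SCI+Ctrl against Sham at 35 dpi 14. Outside SCI+Gsx1 against Sham at 3 dpi, same-numbered samples did not deviate together in every pair of a comparison. Single pairs there had correlations from -0.55 to 0.45, the highest in replicate 3 of SCI+Gsx1 against SCI+Nkx6.1 at 3 dpi. Whether same-numbered samples belong together is not labelled. Members under 1 CPM rest on few counts, and for them a missed threshold does not show equal levels.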
